A study of Mus musculus with 9 samples.

Results

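The genes described here drive the cell division cycle and DNA replication. The list holds 43 genes, of which 42 had at least 1 probe set annotated to that gene alone and 40 were bright enough to test, out of 13570 genes tested in all. They were followed in 9 arrays of messenger RNA from mouse distal small intestine, in 3 groups of 3. BP samples carry Rag1 as their tissue label, and what the name BP stands for is not explained there. Rag1 samples are named for the recombinase that assembles antibody and T cell receptor genes, and B6 samples were labelled wild type. In all groups the mice had carried Bacteroides thetaiotaomicron, a common gut commensal, for 10 days, and each RNA sample pooled pieces 10, 11, 12 and 14 of a gut divided into 16. The series title asks about IgA, the main antibody of mucosal surfaces. No age or sex is labelled, and nothing states that arrays of a group are different mice, so p-values measure only the spread between these samples.

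The intestinal epithelium renews itself by division of cells at the base and sides of the crypts, while villus cells have left the cycle. Before a cell copies its DNA, cyclin D with Cdk4 and cyclin E with Cdk2 release E2F transcription factors, which switch on the replication genes. Origins are licensed by loading of the MCM helicase, and once replication is complete cyclin B with Cdk1 drives mitosis, which ends when the anaphase-promoting complex marks its targets for destruction. The same genes are used by every dividing cell of a tissue, lymphocytes included, so in whole gut a smaller number of dividing cells and less RNA per dividing cell cannot be told apart.

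The members were divided by role. Replication held 16 genes, 12 of the replication machinery and 4 enzymes that make nucleotides, and 14 of them were tested. Mitosis held 19 genes, of which 18 were tested. The remaining 8 act at entry into the cycle (G1/S) and were all tested. Ccnb1, which encodes cyclin B1, was not analysed here because the probe annotation used gave no probe set of its own. Cdc6, which helps load the MCM helicase, had 1 probe set, with intensities between 10.1 and 36.6, and was too dim to test. Tyms, thymidylate synthase, had 4 such probe sets, all too dim. Another probe set is shared by Tyms and its pseudogene and is not counted as either.

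The promoters of replication and mitosis genes differed in how often they held certain short motifs, which is why a few are printed here. Promoters came from RefSeq (GRCm38.p6) and ran from 250 bases before to 50 bases after each start, and 33 of the 43 members had an entry. E2F sites were searched as TTTGGCGC, TTTCCCGC, TTTCGCGC or TTTGCCGC, the CHR element, known from genes that peak in mitosis, as TTTGAA, and the CCAAT box as CCAAT, each on both strands. A gene counted once for a motif, whatever the number of matches, and E2F spellings on opposite strands can overlap. E2F letters stood in 6 of 13 replication promoters (46.2%), in 1 of 15 mitosis promoters (6.67%) and in 2.6% of the 27025 genes of the table. CHR letters stood in 2 of 13 replication promoters (15.4%), in 11 of 15 mitosis promoters (73.3%) and in 20.2% of all genes. CCAAT letters stood in 9 replication and 13 mitosis promoters (69.2% and 86.7%), against 41.1% of all genes. The pathway genes outside the list, which were also chosen by role, split in the same direction, with E2F letters in 29.4% of 34 replication and 9.3% of 43 mitosis promoters, and CHR letters in 20.6% and 67.4%. A match describes the letters in the window and says nothing of binding in these mice. The 150 bases before the start are given for 1 replication gene with 3 E2F matches (Mcm6), for the 1 mitosis gene with both E2F and CHR letters (Cdk1), for 2 mitosis genes with CHR letters (Mki67 and Cdc20), and for the G1/S gene with the widest range over the arrays (Cdca4, the downstream of its 2 listed starts). Capitals mark the motif letters, and CCAAT on the opposite strand reads ATTGG.
Mcm6, chr1:128359706-128359855, reverse strand: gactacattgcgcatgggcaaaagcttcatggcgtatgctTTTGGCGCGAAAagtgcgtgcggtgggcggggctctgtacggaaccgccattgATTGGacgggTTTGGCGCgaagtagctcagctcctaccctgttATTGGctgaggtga
Cdk1, chr10:69352913-69353062, reverse strand: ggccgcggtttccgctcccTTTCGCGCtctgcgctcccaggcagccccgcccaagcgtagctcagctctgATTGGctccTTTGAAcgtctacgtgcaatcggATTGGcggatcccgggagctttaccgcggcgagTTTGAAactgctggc
Mki67, chr7:135716380-135716529, reverse strand: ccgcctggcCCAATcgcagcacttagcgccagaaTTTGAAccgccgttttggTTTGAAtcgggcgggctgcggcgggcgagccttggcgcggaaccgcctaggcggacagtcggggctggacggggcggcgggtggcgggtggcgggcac
Cdc20, chr4:118437344-118437493, reverse strand: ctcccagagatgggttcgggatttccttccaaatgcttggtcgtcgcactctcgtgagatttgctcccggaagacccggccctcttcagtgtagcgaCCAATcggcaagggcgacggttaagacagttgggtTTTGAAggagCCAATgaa
Cdca4, chr12:112829390-112829539, reverse strand: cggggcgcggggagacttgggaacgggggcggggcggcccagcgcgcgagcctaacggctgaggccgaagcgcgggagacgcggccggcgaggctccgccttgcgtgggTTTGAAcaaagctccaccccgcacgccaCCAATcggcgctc
In Mcm6 the first capital run joins an E2F spelling on each strand, and the last E2F match starts 47 bases before the start. In Cdk1 the E2F letters start 131 bases and the CHR letters 71 and 15 bases before the start. In Cdc20 the CHR letters start 18 bases before the start, between a pair of CCAAT boxes.

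The arrays did not all carry RNA of the same quality. The ratio of 3′ to 5′ signal for actin, which increases as RNA is degraded or copied incompletely, was 14.2, 2.43 and 20.2 on BP arrays 1, 2 and 3, against 1.53 to 1.77 on Rag1 arrays and 1.76 to 4.17 on B6 arrays. The deposited intensities ran from 1 to 21694 with array medians of 29.4 to 48.0, and they were normalized before testing. Xist, expressed from the inactive X chromosome, read 36, 624 and 1740 on the 3 BP arrays, 5.84 to 24.1 on Rag1 arrays and 1090 to 1540 on B6 arrays, while the Y-linked Kdm5d read 6.43 to 43.1, 65.7 to 84.0 and 3.55 to 12.7 on BP, Rag1 and B6 arrays. Sex-linked signal therefore moved with group, and its part in the results below was not tested. The tissue was rich in enterocyte markers, with summed intensities of 58400 to 61000 (BP), 50800 to 63500 (Rag1) and 60700 to 65200 (B6) over 9 genes. T cell markers summed to 817 to 946 (BP), 873 to 1150 (Rag1) and 3440 to 4410 (B6), and B cell and plasma cell markers to 189 to 231, 175 to 191 and 3200 to 9370. Igha, the IgA heavy chain, was lower by 5.54 in BP and 5.44 in Rag1 arrays than in B6 arrays on the log2 scale (limma, adjusted p = 2.38e-05 and 3.61e-05).

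**Figure D1:**
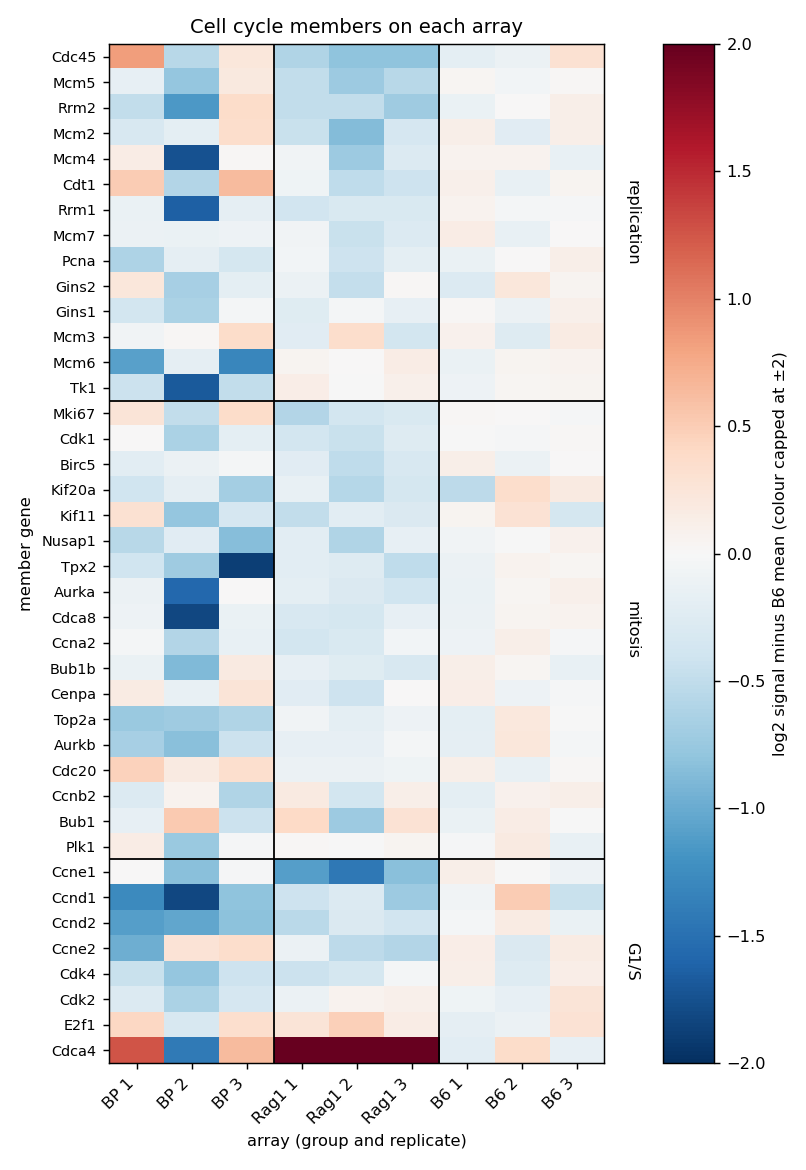
Normalized log2 signal of the 40 tested members (rows, by role) on each of the 9 arrays (columns), given as the difference from the mean of the 3 B6 arrays, with blue lower, red higher and the colour capped at 2. Most replication and mitosis rows are pale blue on the Rag1 arrays, dark blues stand in Mcm4, Rrm1, Tk1, Aurka, Cdca8 and Ccnd1 on BP array 2 and in Tpx2 on BP array 3, and the darkest reds are Cdca4 on the Rag1 arrays.

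Rag1 against B6 compares tissue where lymphocytes with antigen receptors are missing with wild type. Sex-linked signal was split between the same groups, with Xist at 5.84 to 24.1 in Rag1 and 1090 to 1540 in B6. A difference that goes with sex and a difference that goes with missing lymphocytes therefore cannot be told apart here. No member changed by the test, but most replication and mitosis genes read slightly lower in Rag1. Changes are differences of normalized log2(intensity + 16), tested with limma over all 27022 probe sets with Benjamini-Hochberg adjustment, and a gene counts as called at an adjusted p under 0.05. None of the 40 members was called in either direction, while 1 was higher and 5 were lower at an unadjusted p under 0.05. Over all genes 0.0737% were called higher and 0.317% lower. At an unadjusted p under 0.05, 307 of all 13570 genes were higher and 480 lower. Of the 32 replication and mitosis members 29 had a negative log2 change, 12 of 14 for replication (median -0.30) and 17 of 18 for mitosis (median -0.26), whereas 53.1% of all genes did (median -0.02). Both classes kept negative medians when arrays were centred on their median (-0.37 and -0.29) and when values were used as deposited (-0.24 and -0.17, where the median of all genes was 0.09). The 8 G1/S members had 5 negative changes and a median of -0.34.

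On single arrays the 3 Rag1 arrays had medians of -0.18, -0.46 and -0.29 for replication members relative to the B6 mean and -0.20, -0.32 and -0.16 for mitosis members. The B6 arrays themselves lay between -0.06 and 0.07 for replication and between -0.08 and 0.07 for mitosis, so the groups did not overlap in either class median. The reference is the mean of these same B6 arrays, which keeps their medians close to it by construction. Gene by gene, read by the brightest probe set, 15 of 40 members had all 3 Rag1 arrays below all 3 B6 arrays and 1, Cdca4, had all 3 above, against 10.5% and 8.43% of all genes. Those below numbered 5 in replication, 8 in mitosis and 2 in G1/S. Members share the same arrays, so these counts describe the list and carry no p.

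Among replication genes, Mcm5, a subunit of the MCM helicase, read 8.66, 8.43 and 8.59 on the Rag1 arrays, against 9.19, 9.09 and 9.17 on the B6 arrays (log2). All Rag1 values lay below all B6 values, a change of -0.58 ± 0.24 (SE, limma adjusted p = 0.797). The other tested Mcm5 probe set changed by -0.26. Cdc45, which joins MCM in the active helicase, read 5.63, 5.43 and 5.43 in Rag1 and 6.03, 6.12 and 6.54 in B6, a change of -0.73 ± 0.33 without overlap (adjusted p = 0.888). Mcm2, another MCM subunit, read 7.52, 7.11 and 7.64 in Rag1 and 8.09, 7.74 and 8.08 in B6 (-0.55 ± 0.25, adjusted p = 0.888). Rrm1 and Rrm2 are the subunits of ribonucleotide reductase, which makes the building blocks of DNA. Rrm1 read 8.26, 8.33 and 8.33 in Rag1 and 8.70, 8.59 and 8.62 in B6 (-0.33 ± 0.34), but its other tested probe set changed by 0.24. Rrm2 read 7.79, 7.80 and 7.57 in Rag1 and 8.16, 8.29 and 8.41 in B6 (-0.57 ± 0.32). By the brightest probe sets neither subunit overlapped between the groups, and neither passed the test (adjusted p = 0.999 for both). The 2 replication members with positive changes by the brightest set were Mcm6, also an MCM subunit, and Tk1, the thymidine salvage kinase, both at 0.07. The other tested Mcm6 set changed by -0.20.

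By their brightest probe sets, the mitosis members lay in a narrow band, from -0.41 to 0.02. Mki67, the proliferation marker Ki-67, had the lowest change (-0.41 ± 0.23, adjusted p = 0.994), with 8.63, 8.86 and 8.92 in Rag1 and 9.24, 9.23 and 9.19 in B6. Cdk1 (-0.36), Birc5 (-0.35), a subunit of the chromosomal passenger complex, Tpx2 (-0.32) and Nusap1 (-0.32), both spindle assembly factors, Aurka (-0.29), a spindle pole kinase, Cdca8 (-0.28), which works with Birc5, and Bub1b (-0.24), a checkpoint protein, were the others without overlap. Plk1, a kinase of mitotic entry, was the 1 member with a positive change by this reading, at 0.02. Over all tested probe sets the mitosis members ran from -0.70 (Bub1b) to 0.27 (Kif11). The sets of Top2a ran from -0.13 to 0.10 and those of Tpx2 from -0.32 to 0.05.

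No G1/S member was called, and their changes had both signs. Ccne1, cyclin E1, read 5.37, 5.03 and 5.63 in Rag1 and 6.58, 6.46 and 6.36 in B6, and the groups did not overlap (-1.12 ± 0.29, 2.18-fold lower in Rag1, adjusted p = 0.283). Its other tested probe set changed by -0.61 (adjusted p = 0.999). Ccnd2, cyclin D2, was lower in Rag1 on all arrays (-0.41 ± 0.15, adjusted p = 0.691), and all 7 of its tested probe sets had negative changes. Cdca4, a gene named for its association with cell division, ran the other way at 2.50 ± 0.54 by its brightest probe set (limma adjusted p = 0.144). Its other tested sets changed by 0.00 and -0.19, and its values follow with the BP comparison. E2f1, the E2F factor of the list, changed by 0.29 ± 0.24 and Cdk4 by -0.28 ± 0.20 (adjusted p = 0.999 for both). Both other tested E2f1 probe sets changed by -0.40.

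Genes of the pathway outside the list gave similar counts. The 39 tested other replication genes (origin recognition, polymerases, primase, clamp loader, ligase and chromatin assembly) all had negative changes, with a median of -0.22, and 12 did not overlap between the groups. Fen1, the flap endonuclease of lagging-strand synthesis, had the smallest adjusted p of them (-0.62 ± 0.22, adjusted p = 0.628), and Uhrf1, which guides maintenance of DNA methylation, the lowest change (-0.77 ± 0.28, adjusted p = 0.702). Of 53 other mitosis genes 45 had negative changes (median -0.24), and of 30 other regulators 17 did (median -0.04). None of these 122 genes was called by limma, while 1 was higher and 3 were lower at an unadjusted p under 0.05. Over all 13570 genes 307 and 480 were, so these counts do not set the lists apart. Beside these, T cell markers had a median change of -1.89 with 6 of 7 called lower, and 2 of 6 B cell markers were called lower. Crypt markers had 6 of 9 positive changes (median 0.12), and enterocyte markers 8 of 9 negative ones (median -0.09), with no gene of either list called. Dividing lymphocytes and dividing crypt cells both carry the member transcripts, and the part of any cell type in the lower readings was not tested.

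**Figure D2:**
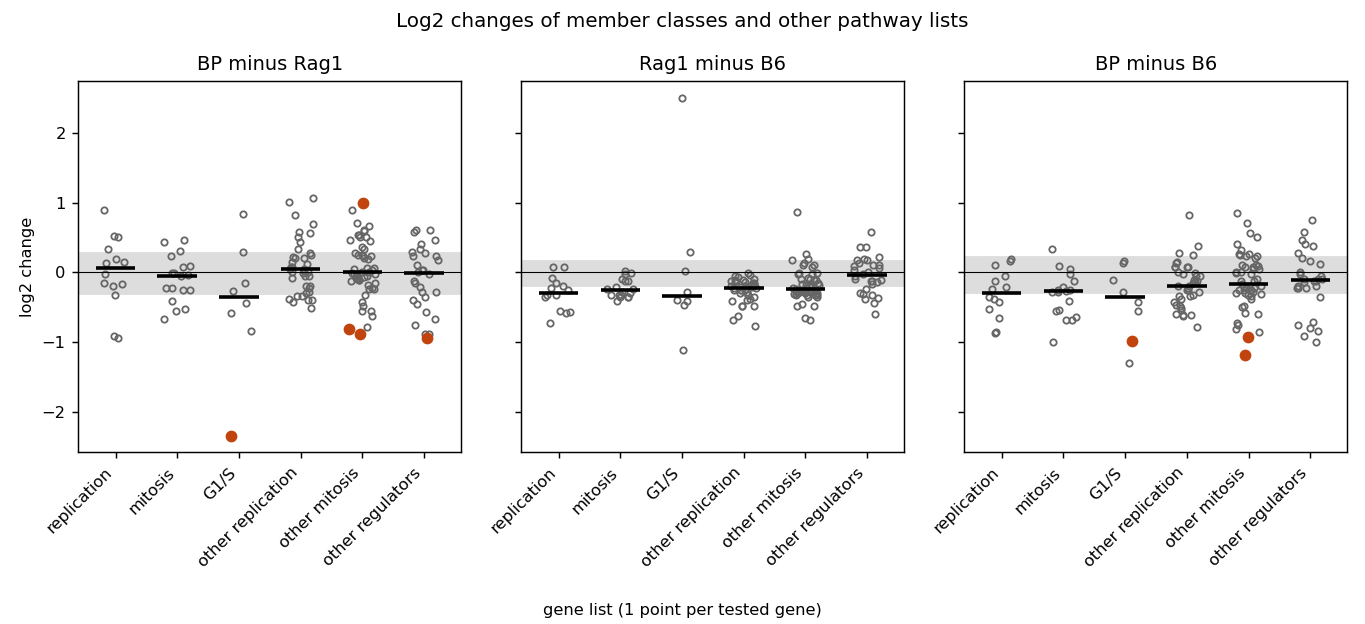
Log2 change of each tested gene in the 3 member classes and the 3 lists of other pathway genes, in a panel for each comparison, with black bars for list medians, a grey band for the middle quartiles of all genes and filled red points for adjusted p under 0.05. In Rag1 minus B6 the replication and mitosis points lie mostly below 0 with medians of -0.30 and -0.26, while in BP minus Rag1 their medians are 0.06 and -0.05 and the points spread both ways.

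BP against Rag1 compares groups that share the Rag1 label. Cdca4 fell, and no other member changed by the test. It read 7.93, 5.26 and 7.30 on BP arrays 1, 2 and 3, against 9.28, 9.58 and 8.66 on the Rag1 arrays and 6.46, 7.04 and 6.50 on the B6 arrays. The BP values all lay below the Rag1 values, a fall of 5.07-fold (-2.34 ± 0.54, limma adjusted p = 0.0396), and they overlapped the B6 values (0.16 ± 0.54, adjusted p = 0.929). The call rests on 1 of the gene's 3 tested probe sets: the other two changed by 0.26 and 0.32 in BP minus Rag1 and by 0.00 and -0.19 in Rag1 minus B6. The set was chosen as the brightest, and it is so only through the Rag1 arrays. Its mean was 6.83 in BP, 9.17 in Rag1 and 6.67 in B6, while the next set had 6.97, 6.71 and 6.70. The mean change over the 3 sets was -0.59. The call was lost when BP array 3 or any single Rag1 or B6 array was left out (adjusted p from 0.0555 to 0.164), and kept without BP array 1 (0.0244) or BP array 2 (0.00193). Over all genes 1.1% were called higher and 2.17% lower.

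**Figure D3:**
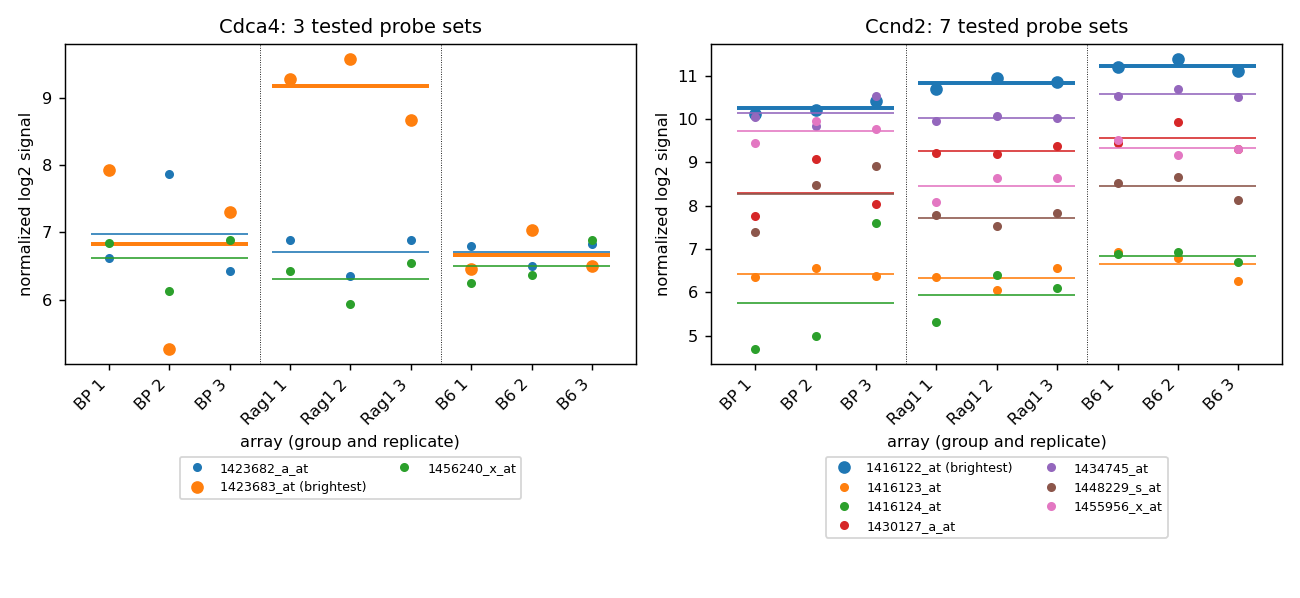
Normalized log2 signal of each tested probe set of Cdca4 (left, 3 sets) and Ccnd2 (right, 7 sets) on each array, with horizontal lines at the mean of the 3 arrays of a group and large points for the brightest set. The brightest Cdca4 set stands at 8.66 to 9.58 on the Rag1 arrays while its other sets stay near 6 to 7, and the Ccnd2 sets differ in which group is lowest.

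Replication members had 7 negative and 7 positive changes in BP minus Rag1 with a median of 0.06, which turned to -0.06 with median centring and -0.04 with values as deposited. Mitosis members had 12 of 18 negative changes (median -0.05), and G1/S members 6 of 8 (median -0.35), beside a median of -0.02 for all genes, 51.5% of them negative. Median centring moved the median of all genes to -0.11. All 3 BP arrays lay below all 3 Rag1 arrays in 8 members and above in 5, against 13.1% and 10.0% of all genes.

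Single replication genes lay on both sides. Mcm6 read 7.78, 8.69 and 7.57 in BP, against 8.92, 8.88 and 9.02 in Rag1 and 8.74, 8.93 and 8.94 in B6. All BP values were the lower, and array 2 came close to the Rag1 range (-0.92 ± 0.27, adjusted p = 0.0784). Its other tested probe set changed by 0.20. Tk1 read 8.08, 6.84 and 8.02 in BP, against 8.65, 8.50 and 8.61 in Rag1 and 8.41, 8.56 and 8.57 in B6, again lower on every BP array (-0.94 ± 0.30, adjusted p = 0.103). Cdc45 read 7.06, 5.67 and 6.45 in BP, above each of the Rag1 values given earlier (0.90 ± 0.33, adjusted p = 0.156). Mcm2 likewise read 7.65, 7.78 and 8.32 in BP, a change of 0.50 ± 0.25 over Rag1 (adjusted p = 0.291). Mcm5 overlapped (0.34 ± 0.24), with 8.99, 8.37 and 9.35 in BP, and its other tested probe set changed by -0.72 (adjusted p = 0.0753). The other MCM subunits had changes within their standard errors, of 0.19 for Mcm3, -0.16 for Mcm4 and 0.14 for Mcm7 (adjusted p from 0.705 to 0.882). Over all their tested probe sets these ran from -0.39 to 0.19, from -0.34 to -0.16 and from -0.94 to 0.38.

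In mitosis, Top2a, which untangles replicated DNA, read 8.62, 8.65 and 8.76 in BP, against 9.29, 9.16 and 9.25 in Rag1 and 9.16, 9.56 and 9.35 in B6 (-0.55 ± 0.17, adjusted p = 0.102). Its BP arrays were close together and all below the Rag1 and B6 arrays, but its other tested probe set changed by 0.48. Aurkb, the kinase of the chromosomal passenger complex, read 6.09, 5.92 and 6.32 in BP, against 6.58, 6.58 and 6.71 in Rag1 and 6.57, 6.97 and 6.71 in B6 (-0.52 ± 0.22, adjusted p = 0.227), and its other tested probe set changed by 0.38. Cdc20, an activator of the anaphase-promoting complex, read 9.43, 9.15 and 9.31 in BP, against 8.86, 8.86 and 8.89 in Rag1 and 9.09, 8.83 and 9.0 in B6 (0.43 ± 0.17, adjusted p = 0.185). It was the 1 member whose BP arrays all lay above both other groups, but its other tested probe set changed by -0.37. Tpx2 read 6.75, 6.45 and 5.27 in BP and overlapped the Rag1 values of 6.94, 6.89 and 6.65 (-0.67 ± 0.34, adjusted p = 0.296), and its 4 tested probe sets ran from -0.89 to 0.10.

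The G1/S members other than Cdca4 were not called. Ccnd1, cyclin D1, read 8.77, 8.22 and 9.23 in BP, against 9.63, 9.77 and 9.32 in Rag1 and 9.97, 10.55 and 9.60 in B6 (-0.84 ± 0.29, adjusted p = 0.134), and both its other probe sets were also lower in BP (-1.31 and -0.83). Cdk2, the partner of cyclin E, read 7.39, 7.02 and 7.32 in BP, against 7.55, 7.73 and 7.76 in Rag1 (-0.44 ± 0.21, adjusted p = 0.284). Ccne1 read 6.47, 5.63 and 6.45 in BP, a change of 0.84 ± 0.29 over Rag1 (adjusted p = 0.128). Its lowest BP value, 5.63, equalled the highest Rag1 value at 2 decimals. Ccnd2 missed the threshold with its brightest probe set (-0.59 ± 0.15, adjusted p = 0.0511), while another of its probe sets was called in the opposite direction (1.27 ± 0.22, adjusted p = 0.0151).

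Outside the list, 1 of 122 pathway genes was called higher and 3 lower, beside the 1.1% and 2.17% of all genes, so the count does not set these lists apart. Ube2c and Ube2s encode the ubiquitin-conjugating enzymes of the anaphase-promoting complex. Ube2c read 7.81, 8.03 and 8.21 in BP, against 9.02, 8.75 and 8.94 in Rag1 and 9.09, 9.43 and 9.10 in B6, and fell (-0.89 ± 0.20, adjusted p = 0.0333). Ube2s read 8.99, 8.89 and 8.85 in BP, against 9.51, 9.86 and 9.83 in Rag1 and 9.83, 10.05 and 9.65 in B6, and fell (-0.82 ± 0.18, adjusted p = 0.0314). For both the 3 BP arrays were close together and below every Rag1 and B6 array. Fzr1, an activator of the same complex in late mitosis and G1, read 7.22, 6.96 and 7.05 in BP, against 8.09, 7.88 and 8.08 in Rag1 and 7.50, 7.36 and 7.46 in B6, and fell (-0.94 ± 0.20, adjusted p = 0.0287). Pttg1, securin, a target of that complex, read 9.60, 10.20 and 9.64 in BP, against 8.66, 8.60 and 9.19 in Rag1 and 9.44, 8.77 and 9.15 in B6, and rose (1.00 ± 0.25, adjusted p = 0.0497). The mean change of Pttg1 over all its probe sets was 0.23. The Pttg1 call was lost in 16 of 23 alternative analyses, the Fzr1 call in 7, the Ube2s call in 9 and the Ube2c call in 10. The other replication genes had a median change of 0.04 (16 of 39 negative, none called by limma, 4 higher and 1 lower at an unadjusted p under 0.05), led by Dck, deoxycytidine kinase (1.06 ± 0.29, adjusted p = 0.0675), and Uhrf1 (1.01 ± 0.28, adjusted p = 0.0719). At that unadjusted p, 1090 of all 13570 genes were higher and 1508 lower. The other mitosis and regulator lists had medians of 0.00 and -0.01. Of the marker lists, crypt markers had a median of -0.02 with Axin2 called (-1.12, adjusted p = 0.025), and muscle markers -0.18 with Myh11 and Des called (-1.51 and -0.69, adjusted p = 0.0134 and 0.0485), genes singled out after their values were seen.

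With genes read by their brightest probe sets, BP array 2 stood apart from BP arrays 1 and 3 in these genes as in RNA quality. Other tested sets of the members went both ways. On BP arrays 1, 2 and 3 another Mcm4 set read 5.36, 6.45 and 4.49, and another Bub1b set 7.57, 6.09 and 7.35. By the brightest sets, the class medians of BP array 2 relative to the B6 mean were -0.61 for replication, -0.61 for mitosis and -0.81 for G1/S. Arrays 1 and 3 had -0.14 and -0.01 for replication, -0.13 and -0.17 for mitosis and -0.36 and -0.18 for G1/S. BP array 2 was the lowest of the 3 BP arrays in 10 of 14 replication members (71.4%), 11 of 18 mitosis members (61.1%) and 6 of 8 G1/S members, and in 48.0% of all genes. Its own median over all genes was -0.16, against 0.04 and 0.03 for arrays 1 and 3. These orders and medians are those after normalization. As deposited, BP array 2 was the brightest BP array, with a median intensity of 48.0, against 30.2 and 32.4. Some members lowest on array 2 after normalization were not so as deposited. Cdc20 then read 608, 666 and 542 on BP arrays 1, 2 and 3, whereas Tk1 read 223, 128 and 206. The median standard deviation of replication members was 0.55 in BP, 0.16 in Rag1 and 0.13 in B6, against 0.42, 0.20 and 0.20 over all genes. It is arrays 1 and 3 that had the high actin ratios. The part of RNA quality in this split was not tested beyond the values with and without those arrays.

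**Figure D4:**
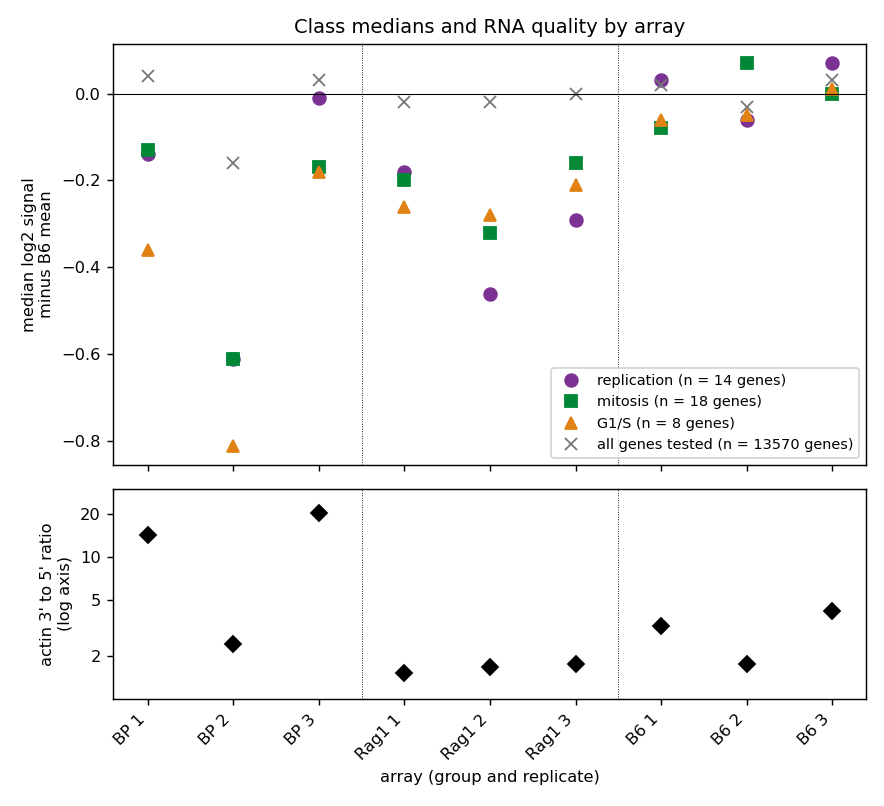
Median difference from the B6 mean (log2) of replication, mitosis and G1/S members and of all genes on each array (upper panel), and the actin 3′ to 5′ ratio of that array on a log axis (lower panel). Each gene was read by its brightest tested probe set. The 3 Rag1 arrays lie between -0.46 and -0.16 in all 3 classes, BP array 2 lies at -0.61 to -0.81 with an actin ratio of 2.43, and BP arrays 1 and 3 lie at -0.36 to -0.01 with ratios of 14.2 and 20.2.

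The calls against Rag1 depended on which BP arrays were used. The fit without array 2 was among the planned fits that left out each array in turn. The fit with array 2 alone was chosen after seeing the data, and its calls rest on that array only. With BP arrays 1 and 3 and not array 2, 11 members were called. Cdt1 (0.91, with -0.71 for its other tested probe set over all BP arrays), which loads the MCM helicase, Cdc45 (1.26), Mcm5 (0.61), Ccne1 (1.11), Mki67 (0.72) and Cdc20 (0.50) were higher in BP. Mcm6 (-1.26), Tk1 (-0.54), Ccnd2 (-0.57), Cdca4 (-1.56) and Top2a (-0.54) were lower. The background was also large, with 10.2% of all genes called higher and 9.96% lower. Other tested sets of these members went both ways on BP arrays 1 and 3, with all arrays normalized together. Another Mcm5 set read 7.57 and 7.62 there against a Rag1 mean of 8.26, and another Top2a set 7.37 and 7.85 against 6.66. Another Ccne1 set read 6.53 and 5.88 against 5.73. With BP array 2 as the lone BP array, taken to vary like the others, 9 members were called, all lower. They were Mcm4 (-1.40), Rrm1 (-1.30), Tk1 (-1.75), Ccnd1 (-1.35), Ccnd2 (-0.63), Cdca4 (-3.94), Aurka (-1.28), Plk1 (-0.77) and Cdca8 (-1.53), beside 8.65% of all genes called higher and 15.0% lower. The compared Rag1 arrays are the same in both. Other tested probe sets of the members named for BP array 2 went both ways. With all arrays normalized together, another Mcm4 set read 6.45 on BP array 2 against a Rag1 mean of 5.77, and another Cdca4 set 7.86 against 6.71. Another Rrm1 set read 6.15 against 6.24, and another Ccnd1 set 5.89 against 7.96. The replication median was 0.21 with arrays 1 and 3 and -0.24 with array 2, and the mitosis median 0.15 and -0.31.

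BP against B6 sets the BP group beside wild type. Ccnd2 fell, and it was the 1 member called. It read 10.13, 10.20 and 10.41 in BP, against 11.20, 11.40 and 11.11 in B6, with the Rag1 values of 10.69, 10.95 and 10.85 lying between them. The groups did not overlap, and the fall was 1.99-fold (-0.99 ± 0.15, limma adjusted p = 0.0124). Of its 7 tested probe sets, 6 had negative changes, from -1.29 to -0.19, and the last had 0.40 (adjusted p = 0.434). The call was lost without B6 array 1 (adjusted p = 0.0653) or B6 array 2 (0.086). Over all genes 0.0368% were called higher and 0.545% lower. Because the BP and Rag1 comparisons with B6 share the B6 arrays, and both Rag1 comparisons share the Rag1 arrays, a likeness or contrast between them is not independent.

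Replication members had 11 of 14 negative changes (median -0.30), mitosis members 15 of 18 (median -0.27) and G1/S members 6 of 8 (median -0.35), against 54.1% of all genes (median -0.04). With median centring the replication and mitosis medians were both -0.44, the median of all genes being -0.15. All 3 BP arrays lay below all 3 B6 arrays in 12 members and above in 1, Cdc20 (0.33 ± 0.17), against 11.8% and 7.34% of all genes. Those below with the smallest p after Ccnd2 were Ccnd1 (-1.30 ± 0.29, 2.46-fold lower, adjusted p = 0.0802), Top2a (-0.68 ± 0.17, adjusted p = 0.115), Mcm6 (-0.85 ± 0.27, adjusted p = 0.169), Tpx2 (-1.0 ± 0.34, adjusted p = 0.201), Tk1 (-0.87 ± 0.30, adjusted p = 0.205) and Aurkb (-0.64 ± 0.22, adjusted p = 0.211). The other tested probe sets of Top2a (0.58), Mcm6 (0.01) and Aurkb (0.17) had positive changes, and the sets of Tpx2 ran from -1.0 to 0.15. Cdk4 read 8.93, 8.59 and 8.96 in BP, against 9.49, 9.11 and 9.51 in B6, also without overlap (-0.55 ± 0.20, adjusted p = 0.229). Rrm1 read 8.51, 7.0 and 8.46 in BP, all below its B6 values (-0.65 ± 0.34, adjusted p = 0.414), and array 2 was the lowest of them. Rrm2, at 7.80, 7.14 and 8.66 in BP, overlapped B6 (-0.42 ± 0.32, adjusted p = 0.600).

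With BP arrays 1 and 3, 8 members were called against B6. Cdt1 (0.57) and Cdca4 (0.95) were higher in BP, and Mcm6 (-1.19), Pcna (-0.48), the sliding clamp of the polymerases, Ccnd1 (-1.04), Ccnd2 (-0.98), Top2a (-0.67) and Tpx2 (-1.15) were lower. Of all genes 4.79% were called higher and 6.53% lower. With BP array 2 alone, 16 members were called, all lower, beside 8.06% of all genes called higher and 14.7% lower. The lowest were Cdca8 (-1.81), Ccnd1 (-1.81), Mcm4 (-1.76), Tk1 (-1.67), Rrm1 (-1.63), Aurka (-1.57) and Cdca4 (-1.44). The same B6 arrays were used in both, and the brightest Cdca4 set changed by 0.95 with BP arrays 1 and 3 and by -1.44 with array 2. Other tested sets went both ways on BP array 2, with all arrays normalized together. Another Cdca4 set read 7.86 there against a B6 mean of 6.70, another Mcm4 set 6.45 against 5.67, and another Rrm1 set 6.15 against 5.99. Another Ccnd1 set read 5.89 against 8.26. The replication median was -0.02 with arrays 1 and 3 and -0.62 with array 2, and the mitosis median -0.11 and -0.61.

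Of the other pathway genes Ube2c (-1.19 ± 0.20, 2.28-fold lower, adjusted p = 0.0221) and Ube2s (-0.93 ± 0.18, 1.91-fold lower, adjusted p = 0.0422) were called lower in BP than in B6, and no gene was called higher. These calls were lost in 9 and 12 of 23 alternative analyses. The other replication genes had 28 of 39 negative changes (median -0.19), the other mitosis genes 32 of 53 (median -0.17) and the other regulators 21 of 30 (median -0.11). Among regulators E2f4, a repressor E2F, had the smallest adjusted p (-1.0 ± 0.25, adjusted p = 0.105). Of the marker lists, T cell markers had a median of -2.15 (5 of 7 called lower), B cell markers -1.62 (2 of 6 called lower) and crypt markers 0.21 (none called, 1 lower at an unadjusted p under 0.05). At that unadjusted p, 1228 of all 13570 genes were lower.

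Probe sets of a single member often differed. Of 25 members with more than 1 tested probe set, all sets had the same sign in 8 in BP minus Rag1, 14 in Rag1 minus B6 and 14 in BP minus B6. Over all genes the shares were 39.7%, 46.6% and 40.5%. In Rag1 minus B6 the 14 members that agreed were all negative, and 69 of all 85 tested member probe sets had negative changes. In BP minus Rag1 the sign of a member's change therefore depended on the probe set read in 17 of 25 members.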

How the data were processed

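Biotin-labelled cRNA from 20 µg of total RNA was hybridized to Affymetrix arrays, per the labels' protocols. The values of 45101 probe sets on 9 arrays were deposited as linear intensities, and the software and scaling behind them are not given in the sources used here. Intensities were turned into log2(value + 16) and quantile-normalized, 64 control probe sets and the lowest 40% by mean (under 23.5 in intensity) were left out, and 27022 probe sets were kept. Symbols came from the platform annotation, and a gene was read by its brightest tested single-symbol probe set. Other sets are given for some genes. The test was limma (version 3.58.1, with R 4.3.3 and the data.table package at 1.17.8), with all 9 arrays in 1 fit with 6 residual degrees of freedom and an intensity trend, two-sided, with Benjamini-Hochberg adjustment and a threshold of 0.05. The number of arrays limits the precision, and the added 16 understates changes of dim genes.

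The members and lists were chosen with earlier results of these data known. Values on every array were given for called members, for up to 4 more of each role by p, and for called genes of the other lists. The alternatives were another centring, no normalization, pseudocounts of 1 and 64, other filters, other fits, all probe sets and leaving out arrays. Samples were not paired by replicate number, because the labels give no pairing. Deviations of same-numbered arrays correlated between -0.19 and 0.23, which with 3 arrays a group cannot show whether they were paired. No arrays were identical.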

Additional observations from a re-analysis of the deposited data

How the results depend on the processing

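Over 23 alternatives the replication and mitosis members with a negative change in Rag1 minus B6 numbered 24 to 31 of 32, beside 29 as reported, and both class medians stayed negative there and in BP minus B6.

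In BP minus Rag1 the count of 1 became 2 with median centring, 2 with values as deposited, 2 with the lowest 60% left out, 2 over all probe sets, 0 with pseudocount 1, 0 with only the 2 groups compared, 0 with no intensity trend and 9 with array weights. In Rag1 minus B6 the count of 0 became 1 with pseudocount 64, 2 with only the 2 groups compared and 4 with array weights. In BP minus B6 the count of 1 became 3 with median centring, 0 with only the 2 groups compared, 0 with no intensity trend and 3 with array weights. The number of all probe sets called also changed between settings, over the ranges given below. The replication median in BP minus Rag1 was -0.19 over all probe sets. The mitosis median in Rag1 minus B6 was -0.17 with values as deposited and -0.16 over all probe sets. With the replicate block the count was 0 in BP minus Rag1, where Cdca4 had an adjusted p of 0.0575, and the counts of the other comparisons did not change (0 and 1). The Cdca4 call was lost in 11 alternatives (adjusted p over all 23 from 4.25e-05 to 0.164) and the Ccnd2 call against B6 in 4 (from 0.000823 to 0.086).

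Leaving out 1 array at a time gave 0 to 11 called members in BP minus Rag1, 0 to 2 in Rag1 minus B6 and 0 to 8 in BP minus B6, the highest each time without BP replicate 2. Without that array 10.2% of all genes were called higher and 9.96% lower in BP minus Rag1, and 4.79% and 6.53% in BP minus B6. The mitosis median in BP minus Rag1 ran from -0.21 to 0.15 and the replication median in BP minus B6 from -0.43 to -0.02.

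Settings chosen after seeing the data used the actin ratio. Without the 2 arrays over 10, which leaves BP array 2 as the lone BP array, 9 members were called in BP minus Rag1, 2 in Rag1 minus B6 and 16 in BP minus B6. The replication and mitosis medians were then -0.24 and -0.31 in BP minus Rag1 and -0.62 and -0.61 in BP minus B6. Without the 4 arrays over 3, which leaves 1 BP and 1 B6 array and takes all spread from the 3 Rag1 arrays, the counts were 9, 1 and 12, with medians of -0.24 and -0.31 in BP minus Rag1 and a mitosis median of -0.65 in BP minus B6. With the log2 ratio as a covariate the counts were 7, 1 and 11, the replication median was -0.33 in BP minus Rag1 and -0.12 in Rag1 minus B6, and the mitosis median was -0.15 in Rag1 minus B6 and -0.48 in BP minus B6. The cause of these shifts was not tested.

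Over all alternatives the probe sets called higher and lower ran from 7 to 2756 and 10 to 3654 in BP minus Rag1 (298 and 729 as reported), 4 to 521 and 32 to 529 in Rag1 minus B6 (19 and 70), and 5 to 2512 and 45 to 3188 in BP minus B6 (16 and 155). The counts of called members above are to be read beside these ranges. A higher count in a setting is not by itself a result about the members. Dim probe sets such as those of Cdc6 and Tyms lie near background, where intensity limits what can be seen.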

Other observations

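The ending of a probe set's name, which marks how many transcripts its probes can match, moved with the sign of the change in BP minus Rag1. This grouping was chosen after seeing the data. Of the 15 tested member probe sets ending in x_at, whose probes may also match other sequences, 9 had positive changes (median 0.15), while 13 of 48 plain ones did (median -0.21). Over all tested probe sets 70.7% of 1616 ending in x_at had positive changes (median 0.27), against 44.8% of 20321 plain ones (median -0.06). In Rag1 minus B6 the members of both kinds were mostly negative, with 2 of 15 and 10 of 48 positive (medians -0.40 and -0.26), while all tested probe sets of the 2 kinds had 36.8% and 52.7% positive changes. In BP minus B6, 4 of 15 and 8 of 48 member sets were positive (medians -0.28 and -0.39), against 66.4% and 45.4% of all tested sets (medians 0.18 and -0.05). Mcm5, Ccne1, Cdc20, Cdk4, Aurkb and Rrm2 were read by x_at sets here, 3 of them (Mcm5, Ccne1 and Cdc20) among the 6 members called higher than Rag1 with BP arrays 1 and 3.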
